A study of Mus musculus with 9 samples.

Results

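The genes of the cytosolic ribosomal proteins, the protein parts of the ribosomes that translate nuclear mRNAs, were followed in mouse CD4+ T cells. Members were chosen by name alone: a symbol made of Rpl or Rps, a number and at most 1 further letter (with an optional x), or Rplp0, Rplp1, Rplp2 or Rpsa, with genes named as pseudogenes (-ps) left out. This gave 83 of the 55487 genes listed, namely 43 of the large subunit, 30 of the small subunit, 3 of the stalk and 7 paralogs whose symbols end in l. In all, 80 members were among the 15536 genes tested, which had at least 1 TPM in at least 3 libraries; Rpl10l, Rpl3l and Rpl39l were not. The rule also leaves out genes such as Rps3a1 and Fau, which encode ribosomal proteins under other names. Since it goes by name, it kept 3 members that are of pseudogene type in the annotation.

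RNA-seq was performed on CD4+ T cells purified from spleens of wild-type C57BL/6 (Trail-r+/+) female mice of 6 to 7 weeks of age, in 3 groups of 3 libraries. The medium group received no stimulus, and its culture time was not given in the sources used here. The stimulated group was held for 24 h with Abs to CD3 (3 µg/ml), a part of the T cell receptor complex, and to the costimulatory receptor CD28 (2 µg/ml). The stimulated + TRAIL group received the same Abs for 24 h together with TRAIL at 10 µg/ml, a tumor necrosis factor family ligand whose receptor TRAIL-R is present in all 3 groups. Whether libraries of 1 group came from separate mice was not given, so p-values measure the spread between these libraries. Values are TPM, transcript abundances that divide reads by transcript length and scale each library to a total of 1000000, so that they are shares; read depth is unknown.

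Each ribosome carries 1 copy of nearly every ribosomal protein beside its ribosomal RNAs, and a cell that starts to grow must make these proteins in matched amounts. Most of their mRNAs begin with a C followed by a run of pyrimidines, the terminal oligopyrimidine (TOP) motif, through which mTORC1 and LARP1 control their translation and stability. T cell receptor stimulation is known to turn on ribosome production before T cells divide.

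Most members were among the most abundant transcripts, and outside the paralogs the lowest mean was 189 TPM. Their mean over the 9 libraries ran from 6.65 to 4554 TPM among the tested members with a median of 1178 TPM, and Rpsa, Rpl13a, Rplp0, Rpl4 and Rplp1 had the highest means. Together they held 10.9, 8.03 and 10.7% of all TPM in the medium libraries, 14.8, 11.0 and 11.2% in the stimulated libraries, and 11.8, 12.5 and 13.9% in the stimulated + TRAIL libraries. The means were 9.86% ± 1.58, 12.3% ± 2.17 and 12.7% ± 1.03 (SD, n = 3), and all stimulated libraries lay above all medium libraries, by a narrow margin for stimulated 2, while the TRAIL libraries lay inside the stimulated range. With genes that nearly match their coding sequences added, the shares were 14.0, 10.4 and 14.2% in medium and 18.6, 14.0 and 14.4% after stimulation, and these groups overlapped. With TRAIL they were 15.5, 16.4 and 18.2%, above all medium libraries. Large- and small-subunit genes moved in step between libraries, at a ratio of their summed TPM of 1.16 to 1.31.

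**Figure D1:**
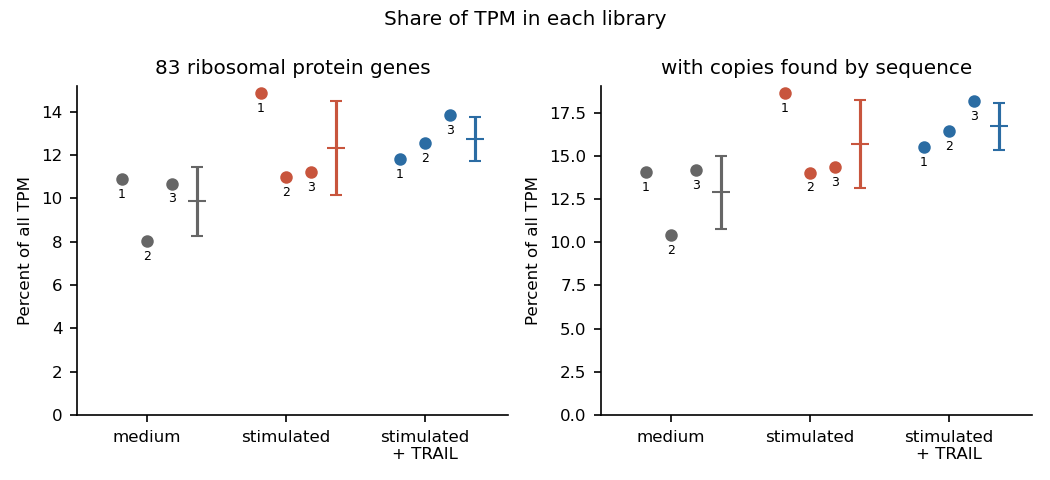
Percent of all TPM (y axis) held by the 83 members (left) and by the members with 1023 further genes that match their coding sequences (right), by group. Numbered points are libraries and bars give the mean and SD of 3 libraries. Medium 2 sits lowest at 8.03% and stimulated 1 highest at 14.8% in the left panel.

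A pair of libraries stood apart from the others of their group in these genes. Medium 2 was below both other medium libraries for 69 of the 80 tested members. The members' median deviation from the mean of those libraries was -0.52 on the log2 scale, against 0.06 over all genes tested. Stimulated 1 was above both other stimulated libraries for 78 of 80, by 0.42 against -0.12 over all genes. These libraries lie on opposite sides of the first comparison, so the counts of members called on the deposited values are also given without both of them. The pair was picked after the members' own values were seen. Leaving it out by itself lowers stimulated minus medium and raises TRAIL minus stimulated for most members. Values and adjusted p without the pair are thus partly set by that choice. Counts on other scales and counts of groups without overlap are given with all libraries. The TRAIL libraries differed in the same manner, with TRAIL 1 lowest for 62 members and TRAIL 3 highest for 62. TRAIL 1 and TRAIL 3 were kept when that pair was left out.

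Other cell types were checked by marker genes. T cell markers summed to 3481 to 3844 TPM in medium, 2923 to 3032 TPM after stimulation and 3377 to 3765 TPM with TRAIL, so the stimulated libraries were below all others. Within that list Cd28 (log2 fold change 0.37) and Thy1 (0.17) were higher after stimulation and all the other genes lower. Summed markers of B cells were 6534 to 7221 TPM in medium, 750 to 819 TPM after stimulation and 3200 to 3705 TPM with TRAIL. All 10 myeloid markers were lower after stimulation, with sums of 1913 to 2174, 59.1 to 73.4 and 1385 to 1602 TPM, and erythroid and platelet markers summed to 2104 to 2552, 27.9 to 40.9 and 612 to 664 TPM, with 2 of their 8 genes at the lowest listed value in a stimulated library. NK cell markers summed to 113 to 137, 26.7 to 28.2 and 39.0 to 45.1 TPM, and CD8 markers to 110 to 118, 94.2 to 105 and 46.9 to 49.4 TPM. Of the CD8 markers, Cd8a was higher (0.20) and Cd8b1 lower (-0.42) after stimulation. The sums of all these lists differed between the groups without overlap, except that T cell markers overlapped between medium and TRAIL, and their part in the results was not tested. In such bulk samples, fewer cells of a type and less RNA per cell cannot be told apart.

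**Figure D2:**
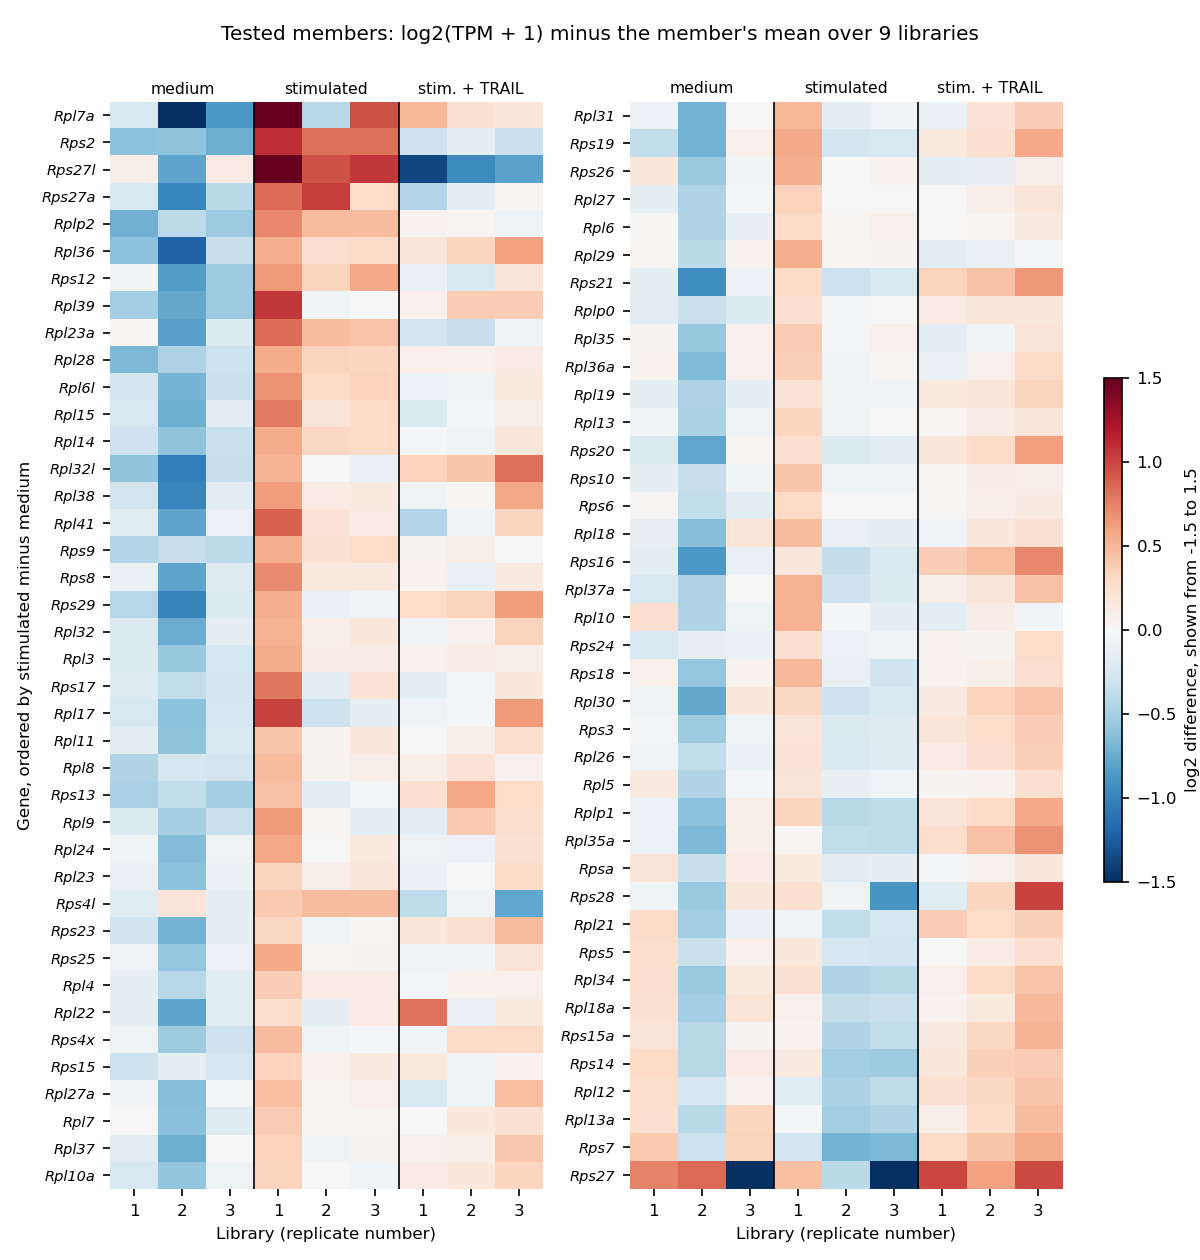
Each row is 1 tested member (1 of the 80 is not shown) and each column 1 library; colour gives log2(TPM + 1) minus the mean of that member over the 9 libraries. Rows are ordered by the stimulated minus medium difference. Columns for medium 2 (low) and stimulated 1 (high) differ from their groups across most rows, whereas Rps2, Rps27l, Rps27a and Rplp2 are high in all 3 stimulated libraries.

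The first comparison asked how the ribosomal protein transcripts changed when the cells were stimulated. Of the 80 tested members 40 passed the test, and those that passed mostly rose: Rps2, Rps27l, Rps27a, Rplp2 and Rpl36 at least doubled, while Rps7 and Rpl12 fell. The fall of Rpl12 did not pass when its near-identical copies were added (-0.28, adjusted p = 0.119), and that of Rps7 did (-0.62, adjusted p = 0.016). In limma on log2(TPM + 1) with Benjamini-Hochberg adjustment over all genes tested, 38 members rose and 2 fell, where 28.8% of all genes tested rose and 40.0% fell. The groups did not overlap for 42 members that were higher, where 29.9% of all genes were higher without overlap, and 6 members rose at least 2-fold (Rpl7a beside the 5 above), where 12.4% of all genes did. The median log2 fold change of the members was 0.38, against -0.15 over all genes. The large subunit had 19 higher and 1 lower of 43, the small subunit 13 higher and 1 lower of 30, the stalk 2 higher of 3, and all 4 tested paralogs rose. Without medium 2 and stimulated 1, 22 members rose and 14 fell (background 29.4 and 37.1%) at a median of 0.10. All 22 risers were among those called with all libraries, but only 2 of the 14 fallers were. The large subunit then had 10 higher and 7 lower, the small subunit 8 and 6, the stalk 1 and 1, and 3 paralogs rose, with Rps2 and Rplp2 the members still up at least 2-fold. Leaving out medium 2 alone gave 25 higher and 4 lower, and leaving out stimulated 1 alone 24 higher and 4 lower. The backgrounds above are not from these fits, whose shares of all genes are not given here.

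Rps2 (chr17:24718116-24721929, GRCm38, plus strand), a small-subunit protein on the side where mRNA enters the ribosome, was the clearest riser. Its TPM was 1238, 1246 and 1142 in medium, 4097, 3360.0 and 3357 after stimulation, and 1536, 1717 and 1508 with TRAIL. All stimulated libraries lay above all others, and the TRAIL libraries lay above the medium libraries. The log2 fold change was 1.57 ± 0.11 (SE, adjusted p = 6.35e-07) after stimulation, and 1.5 without the libraries that stood apart. Rplp2 (chr7:141447370-141451585), an acidic stalk protein that helps to recruit translation factors, had the same order of groups. It was at 465, 585 and 525 TPM in medium, 1259, 1067 and 1057 TPM after stimulation, and 793, 779.6 and 726 TPM with TRAIL. Its log2 fold change after stimulation was 1.10 ± 0.11 (adjusted p = 1.05e-05).

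The stalk proteins did not share this size of change. Rplp0, the stalk base that holds the acidic proteins, was at 3367, 3003 and 3278 TPM in medium and at 4458, 3726 and 3791 TPM after stimulation, a log2 fold change of 0.31 ± 0.11 (adjusted p = 0.0244), which became 0.18 (adjusted p = 0.0776) without the libraries that stood apart. Rplp1, the acidic partner of Rplp2, was at 3086, 2141 and 3507 TPM in medium and at 4104, 2455 and 2521 TPM after stimulation. These groups overlapped, at 0.04 ± 0.23 (adjusted p = 0.877). Without medium 2 and stimulated 1 the value for Rplp1 was -0.40 (adjusted p = 0.0238), a change of direction that leaving out this pair favours.

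Rps27a (chr11:29545846-29548109), which encodes a small-subunit protein fused to ubiquitin, rose from 269, 160.2 and 239.6 TPM to 565, 651 and 383 TPM (log2 fold change 1.25 ± 0.23, adjusted p = 0.000788), and by 0.63 (adjusted p = 0.0317) with its copies added, less than 2-fold. All stimulated libraries were above the medium libraries with either count. Rpl36, a large-subunit protein, rose from 680.3, 451 and 821 TPM to 1521, 1241 and 1277 TPM (1.09 ± 0.20, adjusted p = 0.000849). Rps12, a protein of the beak of the small subunit, was at 932, 535 and 660.2 TPM and then at 1494, 1215 and 1431 TPM (0.99 ± 0.20, adjusted p = 0.00115). Neither gene had an overlap between medium and stimulated libraries. Rps9 (0.74), Rpl14 (0.80), Rpl15 (0.80), Rpl28 (0.89) and Rpl23a (0.91), the last beside the exit of the nascent chain, also rose and still rose without medium 2 and stimulated 1.

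The largest fitted rise, that of Rpl7a, rested on scattered libraries. Its TPM was 479.6, 156 and 309.7 in medium and 1639, 419 and 1101 after stimulation, so the groups overlapped, and the log2 fold change was 1.67 ± 0.49 (adjusted p = 0.011) with all libraries but 0.82 (adjusted p = 0.0932) without the pair that stood apart.

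Rps7 (chr12:28630854-28635953, minus strand), a small-subunit protein that can also bind MDM2, fell. It was at 3259, 1979 and 3133 TPM in medium and at 2053, 1513 and 1555 TPM after stimulation; medium 2 lay just under stimulated 1, which is the only overlap. The log2 fold change was -0.69 ± 0.20 (adjusted p = 0.0102), and -1.06 (adjusted p = 2.4e-05) without those 2 libraries. Rpl12 (chr2:32961559-32965345), which forms the base of the stalk with Rplp0, was at 2741, 1913 and 2393 TPM and then at 2014, 1642 and 1754 TPM (-0.37 ± 0.14, adjusted p = 0.0383), with medium 2 inside the stimulated range. Rpl13a, a large-subunit protein that in some cells leaves the ribosome to silence inflammatory mRNAs, was at 4908, 3124 and 5161 TPM and then at 4039, 2873 and 3015 TPM. For Rpl13a the groups overlapped and the value, -0.39 ± 0.21 (adjusted p = 0.115), did not pass the test with all libraries, but was -0.77 (adjusted p = 0.000468) without medium 2 and stimulated 1.

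**Figure D3:**
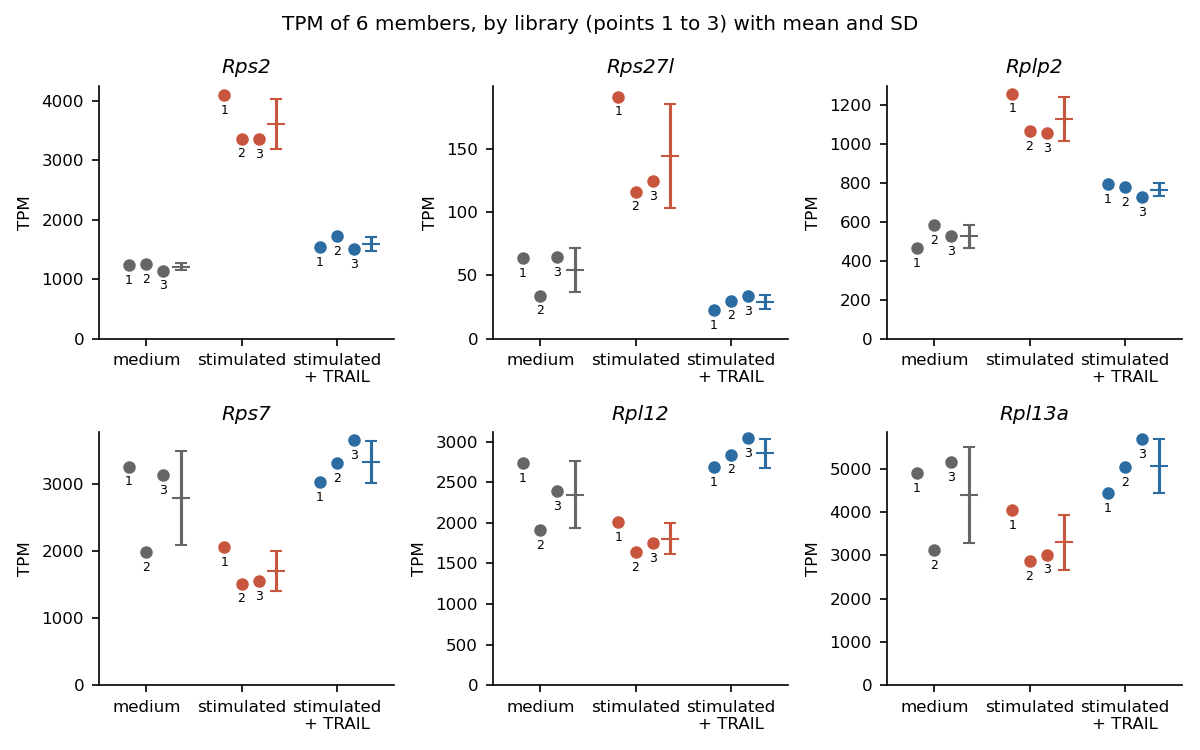
TPM (y axis, from 0) of 6 members in the 3 groups; numbered points are libraries and bars give the mean and SD of 3 libraries. Rps2, Rps27l and Rplp2 are highest in the stimulated libraries, while Rps7, Rpl12 and Rpl13a are lowest there on average.

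The start sites of 8 members described in these paragraphs are shown because the TOP motif lies there; they were picked by hand. The RefSeq promoter table (GRCm38.p6) had an entry for 61 of the 83 members, and the windows below run from 10 bases before the annotated start through the first 20 bases of the transcript, 5′ to 3′. Capitals mark the C and pyrimidine run that begins nearest to the start, within 5 bases of it on either side. Of the 21 named members with a window, 10 had such a run near a start, so the 8 shown, 7 of them with a run, are not representative.
Rps2, chr17:24720053-24720082, plus strand: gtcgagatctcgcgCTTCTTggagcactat
Rplp2, chr7:141447641-141447670, plus strand: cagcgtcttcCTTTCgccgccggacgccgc
Rps27l, chr9:66946076-66946105, plus strand: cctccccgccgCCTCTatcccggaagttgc
Rpl12, chr2:32961702-32961731, plus strand: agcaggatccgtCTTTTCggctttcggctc
Rpl13a, chr7:45128726-45128755, minus strand: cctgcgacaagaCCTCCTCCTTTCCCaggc
Rps7, chr12:28635934-28635963, minus strand: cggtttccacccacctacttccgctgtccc
Rpl7a, chr2:26910797-26910826, plus strand: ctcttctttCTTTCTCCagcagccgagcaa
Rps27, chr3:90213629-90213658, minus strand: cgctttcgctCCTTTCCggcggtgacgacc

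A C followed by at least 4 letters that are each C or T, read on the transcribed strand, began exactly at the annotated start in 14 of the 61 member genes (23.0%) and in 813 of all 27025 genes in that table (3.01%). Within 5 bases of the start it was found in 29 members (47.5%), and in 21.2% of all genes. Rps27l has another annotated start, not shown, without the run within 5 bases. Annotated starts can differ from those used in these cells, and genes with several starts were counted once. The tested members with it at the start had a median log2 fold change of 0.30 after stimulation (n = 14) and those without it 0.36 (n = 44). The medians were -0.018 and 0.045 for TRAIL against stimulation and 0.50 and 0.36 for TRAIL against medium, so the order of the classes was not the same in all comparisons.

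The second comparison asked what TRAIL did to the stimulated cells. Of the 80 tested members 59 did not pass the test, and the others went in both directions, with Rps27l, Rps2, Rps27a, Rpl23a and Rplp2 lower with TRAIL and Rps7, Rpl35a, Rpl12, Rps16 and Rpl13a higher. With near-identical copies added, Rps27a (-0.12, adjusted p = 0.661) and Rpl23a (-0.14, adjusted p = 0.517) no longer passed. In all, 9 members rose and 12 fell with TRAIL, where 33.5% of all genes rose and 33.5% fell. Of the 12, Rps27l and Rps2 fell at least 2-fold, where 14.3% of all genes did. The TRAIL libraries lay above the stimulated ones without overlap for 11 members and below for 15, against 35.5 and 34.9% of all genes. The median log2 fold change was 0.0093 for the members and 0.011 for all genes. Of the large subunit, 4 rose and 4 fell, and of the small subunit 5 rose and 4 fell; 1 stalk gene and 3 paralogs fell. Without medium 2 and stimulated 1, 30 rose and 11 fell (background 33.5 and 36.3%) at a median of 0.18, which included the same 9 risers and 11 of the same 12 fallers. The large subunit then had 11 higher and 3 lower, and the small subunit 17 and 4. The counts moved with single libraries: 22 and 6 without stimulated 1, 15 and 12 without medium 2, 3 and 13 without stimulated 2, 4 and 10 without stimulated 3, 9 and 6 without TRAIL 1, 6 and 7 without TRAIL 2, and 4 and 10 without TRAIL 3. Shares of all genes for these fits are not given here, so whether calls moved beyond the members is not shown. This comparison uses the same stimulated libraries as the first, so a library that is high among them lowers one fold change as it raises the other.

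The members that fell with TRAIL were Rps2, Rps27l, Rps27a, Rplp2, Rps12, Rpl23a, Rpl28, Rpl6l, Rpl15, Rpl14, Rps9 and Rps4l. Rps2 fell by 1.18 on the log2 scale (SE 0.11, adjusted p = 5.73e-06), with all TRAIL libraries below all stimulated ones. Rplp2 fell by 0.55 (SE 0.11, adjusted p = 0.0014), and Rps27a fell by 0.90 (SE 0.23, adjusted p = 0.00605) to 233, 289 and 322 TPM. Rpl23a was at 3320.1, 2565 and 2509.7 TPM after stimulation and at 1531, 1464 and 1776 TPM with TRAIL, without overlap (-0.81 ± 0.20, adjusted p = 0.00484). Of these 12, Rpl28 alone did not pass without the libraries that stood apart (-0.24, adjusted p = 0.0645).

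The members that rose with TRAIL included Rps7, Rpl35a, Rpl12, Rps16, Rpl13a, Rps14, Rps15a and Rpl21. Rps7 rose from 2053, 1513 and 1555 TPM to 3032, 3316 and 3656 TPM, with no overlap (0.98 ± 0.20, adjusted p = 0.00133). Rpl12 rose to 2685, 2843 and 3045 TPM (0.67 ± 0.14, adjusted p = 0.00183), again without overlap. Rpl35a, a large-subunit protein, was at 1448, 957 and 1639 TPM in medium, 1566, 1191 and 1182 TPM after stimulation and 1839, 2075 and 2448 TPM with TRAIL (0.69 ± 0.20, adjusted p = 0.0116). Rps16, whose tail reaches the peptidyl tRNA, was at 1699.9, 1052 and 1779.7 TPM, then 2151, 1496 and 1637 TPM, and 2461, 2606 and 3161 TPM with TRAIL (0.65 ± 0.21, adjusted p = 0.02). For both genes every TRAIL library was above every other library.

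**Figure D4:**
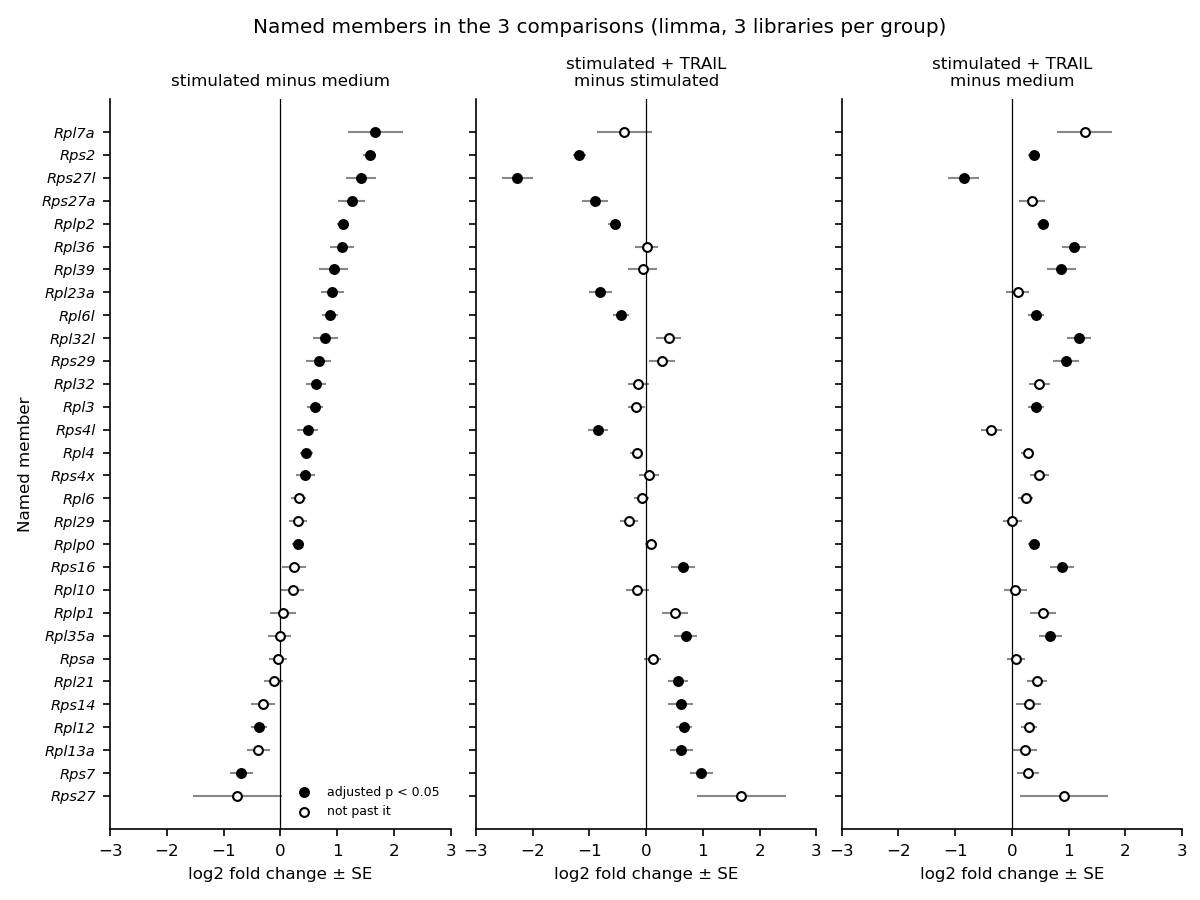
Log2 fold change (x axis) with its SE for 30 named members that were tested, in the 3 comparisons; filled points passed an adjusted p of 0.05 in limma and open points did not. The order of rows is that of the left panel. Rps2 and Rps27l lie far to the right on the left and far to the left in the middle, and Rps7 the opposite, while Rps27 and Rpl7a carry the widest error bars.

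The last comparison set stimulated + TRAIL cells beside medium cells. The fitted difference was above 0 for 78 of 80 members, with Rps27l and Rps4l the exceptions, where 4730 of the 15536 genes tested were above 0. It was above 0 for 70 of 80 members and 4843 of 15018 genes without medium 2 and stimulated 1, and most of these members did not pass the test. In all, 25 members rose and 1, Rps27l, fell, where 8.03% of all genes rose and 24.6% fell, and the medians were 0.41 for the members and -0.18 for all genes. The 3 TRAIL libraries lay above the 3 medium libraries without overlap for 46 of 80 members, where 12.4% of all genes did. Without medium 2 and stimulated 1, 30 rose and 1 fell (background 9.68 and 27.7%) at a median of 0.26, and the 26 calls were kept in direction. The number that rose was 15 without medium 2, 14 without TRAIL 2 and 12 without TRAIL 3, while leaving out another single library could raise it. Shares of all genes for these fits are not given here. Rpl36 rose most among the genes of standard subunits, to 1183, 1311 and 1592 TPM (1.10 ± 0.20, adjusted p = 0.00339), a level that overlapped that of the stimulated libraries. Rps29, a zinc-binding protein of the small subunit, was at 742, 497 and 864 TPM in medium, 1451, 933 and 959.7 TPM after stimulation and 1202, 1253 and 1544 TPM with TRAIL (0.95 ± 0.22 against medium, adjusted p = 0.0102). Rpsa, the laminin receptor precursor that is also a small-subunit protein and the most abundant member, was at 5155, 3566 and 4920.3 TPM, then 5021, 4029 and 4109 TPM, and 4457, 4691 and 5036 TPM with TRAIL. Its groups overlapped in each comparison, and its adjusted p was 0.828, 0.536 and 0.745.

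TPM values are shares of a fixed total, so the fit was also made with every library scaled to the mean of the members. On that scale the all-gene median was -0.50 for stimulation and -0.56 for TRAIL beside medium (log2), and the members are measured against each other. After stimulation, 13 members then rose and 14 fell relative to the rest (background 13.9 and 44.6%). Rps2 (1.17, adjusted p = 6.61e-05), Rps27l (1.02, adjusted p = 0.00107), Rps27a (0.85) and Rplp2 (0.70) stayed above, and Rps7 (-1.09, adjusted p = 6.39e-06), Rpl13a (-0.80), Rpl12 (-0.78) and Rps14 (-0.72), a protein of the small-subunit platform, were below. With TRAIL against stimulation, 13 rose and 11 fell (background 24.9 and 25.3%), led by Rps7 (0.96) upward and Rps27l (-2.28) and Rps2 (-1.20) downward. With TRAIL against medium, 5 rose and 4 fell (background 2.85 and 38.9%), and Rps2 lay at -0.031.

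Among the paralogs, Rps27l (chr9:66946086-66949516), a relative of Rps27 known as a target of p53, moved most. It was at 63.6, 33.9 and 64.4 TPM in medium, 191, 116 and 125 TPM after stimulation and 22.4, 29.99 and 33.7 TPM with TRAIL. The stimulated libraries lay above all others, and the TRAIL libraries below all others, the nearest medium library being medium 2. The log2 fold changes were 1.42 ± 0.27 (adjusted p = 0.000911), -2.27 ± 0.27 (adjusted p = 3.37e-05) and, TRAIL against medium, -0.85 ± 0.27 (adjusted p = 0.0363). Rpl6l, of pseudogene type in the annotation, rose to 235, 182 and 187 TPM from 122, 90.5 and 116 TPM and fell to 138, 139 and 163 TPM with TRAIL. Rpl32l, also of pseudogene type, was at 18.2, 13.2 and 22.0 TPM, then 40.4, 27.9 and 26.2 TPM, and 36.2, 37.8 and 50.6 TPM with TRAIL, so it did not come down. Rps4l stayed under 10 TPM in all libraries. Rpl39l reached 1.44 TPM at most, Rpl3l, the muscle form of Rpl3, 0.117 TPM, and Rpl10l, the testis form of Rpl10, was listed at 0.0001 TPM, the lowest value of the table, in all 9 libraries. Their parents were abundant, with Rpl39 at 134 to 477 TPM, Rpl3 at 1194 to 2598 TPM and Rpl10 at 959 to 1879 TPM.

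Several of these values depended on near-identical copies. Against the coding sequences of the members, 1023 other listed genes matched 75 members at 90% identity or more over at least 50% of the length. Of these, 1003 were of pseudogene type and 27 were identical over the aligned stretch, which was not always the whole coding sequence. The copies held 2.39 to 4.31% of all TPM in a library, and reads cannot be assigned between identical sequences with certainty. Rps27 is the plainest case, because its coding sequence is the same as that of the retrogene Rps27rt. Both are 252 bases long without the stop codon, and the sequence is shown because no base separates them; Rps27l, below it, differs at 60 bases (capitals) and shares 76.2%.
Rps27 (chr3:90212522-90213651, minus strand) and Rps27rt (chr9:114982366-114982739, minus strand), GENCODE M21: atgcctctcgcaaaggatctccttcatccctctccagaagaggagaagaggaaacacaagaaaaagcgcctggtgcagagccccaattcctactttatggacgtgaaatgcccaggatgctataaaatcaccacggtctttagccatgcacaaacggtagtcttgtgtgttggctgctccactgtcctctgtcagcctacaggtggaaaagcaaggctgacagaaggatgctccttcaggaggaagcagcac
Rps27l (chr9:66946086-66949516, plus strand), GENCODE M21: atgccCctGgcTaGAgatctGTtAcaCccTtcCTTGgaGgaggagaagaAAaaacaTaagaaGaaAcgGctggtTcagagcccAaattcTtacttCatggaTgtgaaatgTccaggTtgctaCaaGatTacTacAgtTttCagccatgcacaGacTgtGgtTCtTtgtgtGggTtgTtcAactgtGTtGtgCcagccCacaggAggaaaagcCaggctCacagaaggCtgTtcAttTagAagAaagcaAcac

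Rps27 alone was at 983, 1058 and 172 TPM in medium, 798, 441 and 104 TPM after stimulation and 1171, 892 and 1159 TPM with TRAIL. Rps27rt was at 202, 76.2 and 1062 TPM, then 129, 65.6 and 399 TPM, and 251, 665 and 570.3 TPM. Where one was low the other was high, in medium 3 and stimulated 3, and Rps27 took from 13.9 to 93.3% of their sum. The sums were 1185, 1134 and 1233 TPM in medium, 927, 506 and 503 TPM after stimulation, and 1422, 1557 and 1729.6 TPM with TRAIL, and on this scale the 3 groups did not overlap. Rps27 alone passed no test, with log2 fold changes of -0.76 ± 0.78 (adjusted p = 0.407), 1.68 ± 0.78 (adjusted p = 0.0811) and 0.92 ± 0.78 (adjusted p = 0.396). Summed with all its copies it fell after stimulation (-0.94, adjusted p = 0.00219) and rose with TRAIL (1.34, adjusted p = 0.000198), the direction of Rps7 counted in the same way.

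**Figure D5:**
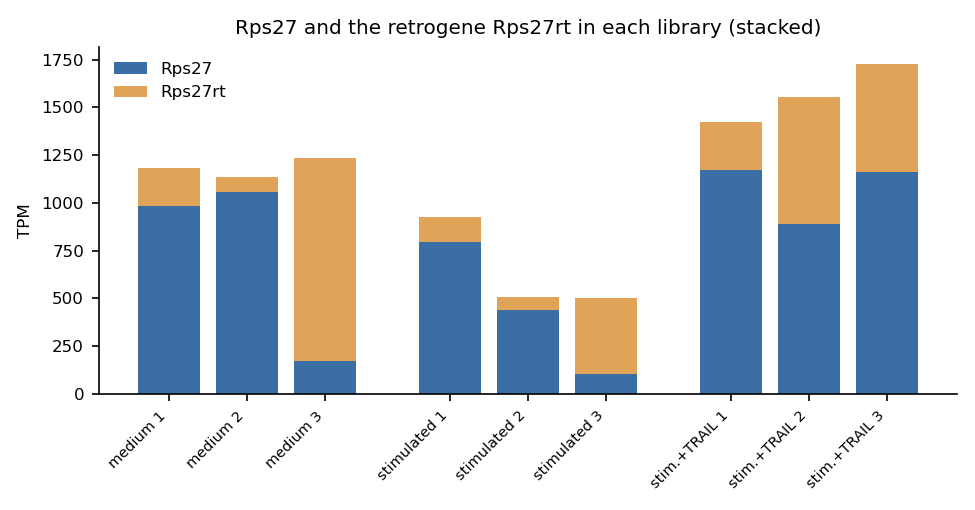
TPM (y axis, from 0) of Rps27 and of Rps27rt, stacked, in each of the 9 libraries (x axis). The division between the genes differs from library to library (Rps27 takes 13.9% in medium 3 and 93.3% in medium 2), while the stacked height is 1134 to 1233 TPM in medium, 503 to 927 TPM after stimulation and 1422 to 1729.6 TPM with TRAIL.

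Other members changed with their copies too. Rpl27a, a large-subunit protein, was at 1455, 1086 and 1129 TPM after stimulation and 913, 1013 and 1460.0 TPM with TRAIL, and its identical copy Gm7536 was at 176, 179 and 195 TPM and then at 1406, 1619 and 1141 TPM. Alone, Rpl27a gave -0.13 ± 0.21 (adjusted p = 0.6) for TRAIL against stimulation, and with copies 0.90 (adjusted p = 0.000748). The falls of Rps27a and Rpl23a with TRAIL did not pass with copies, as given above, and Rps12 with its copies was at -0.33 (adjusted p = 0.12). Rpl7a with 84 copies was at 1772 to 1986 TPM in medium and 3033 to 3478 TPM after stimulation, at 0.77 (adjusted p = 3.45e-05), and it fell with TRAIL (-0.49, adjusted p = 0.00087). Rpl21 was at 129.7 to 239 TPM alone, among the lowest of the standard members, and at 2307 to 4573 TPM with 79 copies. The values of Rps2 (1.32 and -1.01) and Rplp2 (1.11 and -0.57) stayed past the test in both comparisons, as did those of Rps27l and Rps7. With copies, 35 members rose and 2 fell after stimulation (background 28.3 and 41.0%), 13 rose and 10 fell with TRAIL against stimulation (34.3 and 34.2%), and 28 rose and 1 fell with TRAIL against medium (7.62 and 25.5%). The calls shared by both ways of counting numbered 35, 18 and 23, all in the same direction.

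Some ribosomal genes were left out by the naming rule. Rps3a1, a small-subunit protein, was at 2973 to 4542 TPM in medium, 3497 to 4216 TPM after stimulation and 4388 to 5430.3 TPM with TRAIL. Fau, which encodes a ribosomal protein fused to a ubiquitin-like domain, was at 907 to 1585 TPM over all libraries, and Rack1, a signaling scaffold on the small subunit, at 1502 to 2068 TPM. Adjusted p ran from 0.0544 to 0.793 over these 3 genes and the 3 comparisons. All 3 rose with TRAIL against stimulation when medium 2 and stimulated 1 were left out. Of the paralogs under other names, Rpl7l1, a relative of Rpl7 that acts in large-subunit assembly, was at 53.4, 51.3 and 53.3 TPM, rose to 127, 121 and 113 TPM (1.17 ± 0.08, adjusted p = 6.07e-07) and fell to 42.2, 42.2 and 42.9 TPM with TRAIL (-1.48 ± 0.08, adjusted p = 1.27e-07).

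Genes that help to build ribosomes had larger median changes than the ribosomal protein genes after stimulation and with TRAIL against stimulation. The lists of these genes were drawn up by hand and are given by count and median, beside the 28.8% of all genes that rose and 40.0% that fell after stimulation and the 33.5% in each direction with TRAIL against stimulation. Of 22 ribosome assembly factors, 20 rose after stimulation (median log2 fold change 1.22) and 21 fell with TRAIL against stimulation (median -1.16). Nucleolin (Ncl), which binds precursor ribosomal RNA, went from 211 to 232 TPM to 1074 to 1159.7 TPM and then to 340.0 to 346 TPM (2.35 ± 0.08 and -1.70 ± 0.08). Rrp12, an export factor of the small subunit, changed by 1.97 ± 0.14 and -2.11 ± 0.14. Of 15 chaperones and importins of ribosomal proteins, 12 rose and then 13 fell (medians 1.02 and -1.09), among them the importin Ipo5 (1.70 ± 0.11 and -2.04 ± 0.11). Of 14 genes of ribosomal RNA transcription, 10 rose and 2 fell after stimulation, and 11 fell with TRAIL (medians 0.64 and -0.76), with the RNA polymerase I subunit Polr1b at 1.51 ± 0.21 and -1.76 ± 0.21. The counts given for these 3 lists moved by at most 1 gene when medium 2 and stimulated 1 were left out.

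Other TOP mRNAs were mixed. Of 20 genes of translation elongation and other TOP mRNAs, 15 rose and 2 fell after stimulation, and 3 rose and 10 fell with TRAIL against stimulation (medians 0.52 and -0.25), and without the libraries that stood apart 13 rose and 4 fell, then 5 rose and 11 fell. Eef1g, a subunit of the elongation factor that recharges eEF1A, changed by 1.31 ± 0.10 and -1.25 ± 0.10. Eef1a1 itself was at 12661 to 13716 TPM in medium, 18524 to 18782 TPM after stimulation and 16838 to 17278 TPM with TRAIL (0.50 ± 0.10, adjusted p = 0.00142, then -0.13 ± 0.10, adjusted p = 0.294). Eif4a2, an RNA helicase of translation initiation, fell by 1.60 and then rose by 1.21. Of 15 genes that act on TOP mRNAs through mTORC1 and LARP1, 5 rose (33.3%, near the 28.8% of all genes) and 4 fell, and then 1 rose and 7 fell (46.7%, beside 33.5%); without medium 2 and stimulated 1, 7 rose and 1 fell, and then 9 fell. The translation repressor Eif4ebp1 was at 6.46 to 8.60 TPM in medium, 126 to 157 TPM after stimulation and 4.11 to 5.43 TPM with TRAIL, and Larp1, which binds the TOP motif, was at 60.1 to 79.1, 184 to 269 and 55.9 to 72.1 TPM. Of 10 genes of ribosome hibernation, recycling and rescue, 6 rose and 2 fell after stimulation and 1 rose and 6 fell with TRAIL, led by Ifrd2, which binds idle ribosomes (2.03 ± 0.13 and -2.62 ± 0.13).

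Set beside the genes of mitochondrial ribosomal proteins, the cytosolic ones changed less at the median after stimulation and with TRAIL against stimulation. This was not so with TRAIL against medium, where the cytosolic median was higher. Of 78 mitochondrial ribosomal protein genes, 70 rose and 1 fell after stimulation (median 0.87), and 73 fell with TRAIL against stimulation (median -1.05), which left them at -0.18 against medium. Their summed TPM was 2351 to 2709.9 in medium, 4256 to 4982 after stimulation and 2254 to 2308 with TRAIL, with the stimulated libraries above all others. The 58 tested translation initiation factor genes had medians of 0.79 and -0.88. Without medium 2 and stimulated 1, 64 mitochondrial genes rose and 2 fell after stimulation and 72 fell with TRAIL, and their medians were 0.71 and -0.997, beside 0.10 and 0.18 for the cytosolic members. No test of the difference between these gene groups was made.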

How the data were processed

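The authors trimmed 150-base reads with Trimmomatic 0.36 and aligned them with HISAT2 2.1.0 to GRCm38 per the methods of the study (the submitters' notes list GRCh38; all 83 members had mouse identifiers and their GENCODE M21 locus). The notes also list SAMtools 1.2, StringTie 2.1.2 and DESeq2, without giving their part in the TPM values. The authors deposited 1 TPM value per library for 55487 genes; counts, depth and strand setting were not given in the sources used here, so reads of copies and of overlapping genes (47 members overlap another gene, 22 on the opposite strand) may be divided wrongly.

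From these TPM values, limma 3.58.1 in R 4.3.3 (lmFit, eBayes with trend) was fitted on log2(TPM + 1) to all 9 libraries and 15536 genes (1 TPM or more in 3 or more libraries), without a replicate block. A gene was called at a Benjamini-Hochberg adjusted p under 0.05. A fold change on this scale understates changes of low genes. The code was tested on simulated data. Copies were found with blastn 2.17.0. Named genes were the 5 highest and 5 lowest fold changes per comparison, the 5 highest and lowest means, paralogs with their parents, stalk genes, Rpsa, Rps3a1, Fau, Rack1 and the leading called genes of each hand-made list; Rpl27a, Eef1a1 and the other called members of the second comparison were named after their values were seen. The members and lists were chosen with earlier results of these data known. Values of 1 member and 1 listed gene outside the naming rule are not reported here.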

Additional observations from a re-analysis of the deposited data

How the results depend on the processing

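Of 90 fold changes of named members over the 3 comparisons, those past the test before or after a change of setting kept their direction under both other pseudocounts, median-of-ratios scaling, the filters and each left-out library. The reversals under other settings follow. Those with scaling to the members come from that scaling itself, and the cause of the others was not tested. With quantile normalization, Rpsa was at 0.51 after stimulation and -0.41 with TRAIL against stimulation, and Rplp0 at -0.26 there. With scaling to the members, Rplp0 (-0.10) and Rplp1 (-0.36) after stimulation, and Rpl29 (-0.41), Rplp0 (-0.032), Rps2 (-0.031) and Rpsa (-0.35) with TRAIL against medium, were reversed. That scaling takes nearly the same amount from every member in a comparison, so smaller rises change sign by construction. Without medium 2 and stimulated 1 (chosen after seeing the data, as were copies found by sequence), Rplp1 was at -0.40 after stimulation and Rpl39 at 0.30 with TRAIL against stimulation.

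The members that rose and fell after stimulation numbered 23 and 1 without a filter, 13 and 14 scaled to the members, and 22 and 14 without medium 2 and stimulated 1; the number that fell was 0 with median-of-ratios scaling, where 38 became 33, then 5 with quantile normalization and 1 with only those 2 groups in the fit. With TRAIL against stimulation they were 4 and 7 without a filter, and 14 and 7 without mitochondrially encoded, immunoglobulin and globin genes; 16 rose with quantile normalization, 30 without medium 2 and stimulated 1, and 6 fell with median-of-ratios scaling. With TRAIL against medium, 9, 14 and 5 rose without a filter, with quantile normalization and scaled to the members, and 0, 0, 0 and 4 fell without a filter, with median-of-ratios scaling, with quantile normalization and scaled to the members. Without a filter more genes share the adjustment. The members' median scaled to the members was -0.022 after stimulation and -0.015 with TRAIL against medium, because that scale centres the members. Its counts are therefore relative to the other members and do not test the counts on the deposited values. Median-of-ratios scaling moved the median of all genes to -0.07, 0.09 and -0.02 in the 3 comparisons.

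Mean summed TPM with copies was 128750 in medium, 156717 after stimulation and 166936 with TRAIL, against 98607, 123399 and 127308 for members alone; with TRAIL it was 144061 with genes named as pseudogenes and 144773 without mitochondrially encoded, immunoglobulin and globin genes. Leaving out 1 library gave means of 93576 to 107736, 110906 to 130281 and 121707 to 131903. It gave 24 to 36 that rose and 1 to 4 that fell after stimulation (median 0.23 to 0.47), 3 to 22 and 6 to 13 with TRAIL against stimulation (median -0.06 to 0.18), and 12 to 37 and 0 to 1 with TRAIL against medium (median 0.26 to 0.48). The counts in this section stand without the share of all genes, so they show only how the member counts moved. Correlations of same-numbered deviations ran from -0.31 to 0.29 (n = 9), and those of differently numbered ones from -0.38 to 0.29 (n = 18). The replicate numbers thus showed no pairing, but this check cannot exclude libraries of a shared origin. With the replicate block 39 rose and 2 fell, 10 rose and 11 fell, and 29 rose and 1 fell. TPM holds no counts, so counting error could not be given.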
